A study of Mus musculus with 2 samples.

Results

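Wide H3K9me2 peaks that were called in Jmjd1c knockout B cells and had no counterpart in wild-type B cells numbered 1495, of 32148 peaks in the knockout list and of 63770 peaks in both lists. They were chosen by 3 values of the deposited peak lists. Peaks on chromosomes 1 to 19 and X were kept if their length exceeded the caller's fragment length d by at least 500 bp, if their pileup, the mean number of extended tags over a base of the peak, was below 100, and if no wild-type peak overlapped them by 1 bp. These regions are called KO-only wide peaks here, and the same rule with the lists exchanged gave 1613 WT-only wide peaks. The knockout library (KO) came from activated B cells with the genotype jmjd1c B KO, and the wild-type library (WT) from activated B cells with the genotype WT, all of the C57BL/6 strain. There was 1 library per genotype, so differences cannot be set against a spread between replicates, and there are no p-values. Intervals in parentheses are exact 95% intervals that cover counting error only. The allele, the promoter of any Cre, the stimulus, the age and the number of mice were not given in the sources used here. The series compared where H3K9me2 lies in the presence and absence of Jmjd1c in these cells.

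H3K9me2, the dimethylated form of lysine 9 on histone H3, is laid down mainly by the methyltransferases G9a and GLP and is read by chromatin proteins that keep genes silent. It is spread over broad, gene-poor and transcriptionally quiet stretches of chromosomes and is scarce at active promoters. Jmjd1c belongs to the jumonji KDM3 family, which includes enzymes that remove methyl groups from H3K9. CUT&Tag maps the mark with an antibody that brings a transposase to marked chromatin, where it cuts and tags the DNA.

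A few KO-only wide peaks lay on gene starts, and the sequences of 5 of them are shown as examples of GC-rich and AT-rich starts. The sequences below are RefSeq promoter windows on GRCm38.p6, from 250 bases before to 50 bases after an annotated start, written 5′ to 3′ on the gene's strand. Capitals mark the bases inside the KO-only wide peak. Shown are the 4 protein-coding genes outside the olfactory receptors whose start lay inside such a peak with the lowest q-values, and 1 olfactory receptor as an AT-rich contrast, all chosen after their values were seen. Nox4, on the plus strand at chr7:87246399-87246698, encodes an NADPH oxidase. Scp2d1, on the plus strand at chr2:144823416-144823715, encodes a protein with a sterol carrier domain. Tfap2d, on the plus strand at chr1:19103883-19104182, encodes an AP-2 family transcription factor, and Ppfia2, on the plus strand at chr10:106470060-106470359, encodes a liprin of synaptic active zones. Olfr825, an odorant receptor gene, has its window on the minus strand at chr10:130163275-130163574.
Nox4: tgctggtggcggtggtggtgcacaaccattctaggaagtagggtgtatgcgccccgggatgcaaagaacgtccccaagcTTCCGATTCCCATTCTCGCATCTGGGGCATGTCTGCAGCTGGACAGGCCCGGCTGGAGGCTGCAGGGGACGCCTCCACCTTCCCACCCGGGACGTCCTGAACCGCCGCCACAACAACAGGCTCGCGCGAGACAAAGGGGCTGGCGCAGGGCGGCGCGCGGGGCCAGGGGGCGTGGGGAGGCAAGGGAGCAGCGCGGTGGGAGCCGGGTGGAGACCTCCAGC
Scp2d1: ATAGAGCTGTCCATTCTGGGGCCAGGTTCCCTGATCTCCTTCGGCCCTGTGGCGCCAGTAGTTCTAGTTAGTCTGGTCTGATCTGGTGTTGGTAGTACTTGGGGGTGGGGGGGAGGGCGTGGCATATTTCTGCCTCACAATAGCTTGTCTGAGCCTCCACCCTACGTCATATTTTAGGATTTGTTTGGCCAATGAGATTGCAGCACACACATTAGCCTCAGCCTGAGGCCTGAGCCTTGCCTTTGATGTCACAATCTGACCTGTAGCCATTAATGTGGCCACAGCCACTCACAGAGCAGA
Tfap2d: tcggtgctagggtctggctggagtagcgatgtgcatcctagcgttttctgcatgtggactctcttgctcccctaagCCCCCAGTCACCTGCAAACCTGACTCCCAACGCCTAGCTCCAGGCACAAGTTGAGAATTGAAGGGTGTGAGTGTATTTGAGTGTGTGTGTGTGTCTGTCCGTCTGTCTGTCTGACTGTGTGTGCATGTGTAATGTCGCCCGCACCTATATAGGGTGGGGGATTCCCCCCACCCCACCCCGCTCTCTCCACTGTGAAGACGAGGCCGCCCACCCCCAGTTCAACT
Ppfia2: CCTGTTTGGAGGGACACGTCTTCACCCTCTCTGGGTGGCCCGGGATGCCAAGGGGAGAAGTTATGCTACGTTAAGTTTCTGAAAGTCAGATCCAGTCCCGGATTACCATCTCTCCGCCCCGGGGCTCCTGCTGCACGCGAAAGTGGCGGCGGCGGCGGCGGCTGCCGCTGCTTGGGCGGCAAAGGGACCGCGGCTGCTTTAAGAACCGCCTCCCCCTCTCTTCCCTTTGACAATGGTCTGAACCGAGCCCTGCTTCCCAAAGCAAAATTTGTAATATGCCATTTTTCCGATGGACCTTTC
Olfr825: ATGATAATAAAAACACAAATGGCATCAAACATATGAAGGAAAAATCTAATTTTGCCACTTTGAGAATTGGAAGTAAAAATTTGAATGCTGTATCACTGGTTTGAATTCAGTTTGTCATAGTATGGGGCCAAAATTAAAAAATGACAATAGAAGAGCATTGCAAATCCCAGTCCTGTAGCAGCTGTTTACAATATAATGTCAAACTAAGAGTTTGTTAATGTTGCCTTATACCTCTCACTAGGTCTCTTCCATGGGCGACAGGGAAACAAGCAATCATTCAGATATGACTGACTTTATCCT

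Of the 300 bases of each window, 221 at Nox4 and 224 at Tfap2d were inside the peak, and all 300 were inside it at Scp2d1, Ppfia2 and Olfr825. The GC share was 68.3% at Nox4, 58.3% at Ppfia2, 56.7% at Tfap2d, 52.7% at Scp2d1 and 34.7% at Olfr825. The windows thus ran from GC-rich, with 24 CpG dinucleotides at Nox4, to AT-rich, with 1 CpG at Olfr825. The peaks there had −log10 q-values of 4.43 at Nox4, 3.99 at Scp2d1, 3.33 at Olfr825, 3.11 at Tfap2d and 3.07 at Ppfia2. The nearest WT peak was 32.4 kb from the Nox4 peak and 8.42 to 14.6 kb from the other 4.

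Across all annotated starts, KO-only wide peaks overlapped 27 of 32618 promoter windows, belonging to 25 genes, and WT-only wide peaks overlapped 22 windows of 21 genes. Of the 25 genes, 16 were protein-coding. Besides the 5 shown, these were the endothelin receptor gene Ednra, the potassium channel gene Kcnd2, the neurobeachin gene Nbea, the retinol acyltransferase gene Lrat, the matrix gene Frem1, the tight junction gene Cldn18, the fibroblast growth factor homologue Fgf12, the odorant receptor genes Olfr350 and Olfr638, and BC051665 and Gm3373. At Kcnd2, Fgf12 and Lrat a WT peak lay only 0.949, 1.02 and 1.07 kb away from the KO-only wide peak. At Cldn18, Fgf12 and Olfr638 the window was touched by 19 to 27 bases, and the start itself was outside the peak. The 27 windows had a median GC share of 52.7% and a median of 5 CpG dinucleotides, and all 32618 windows had 53.0% and 7. The most GC-rich were those of Nbea, with 75% GC and 36 CpG dinucleotides, and Kcnd2, with 68.7% and 26. The motif TATAAA, searched on both strands, was present in 3 of the 27 windows, or 11.1%, and in 13.7% of all windows. Promoter windows were available for 17273 of the 21517 protein-coding genes, or 80.3%, so a start without a window could not be counted.

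The selection left 1495 of 5362 wide KO peaks, or 27.9% (26.7 to 29.1), and 1613 of 5455 wide WT peaks, or 29.6% (28.4 to 30.8). Among KO peaks of any width 54.1% had no WT peak, which is the background for the 27.9%. KO-only wide peaks made up 4.65% of the KO list and covered 1.28 Mb, or 8.68% of the 14.7 Mb under KO peaks. WT-only wide peaks covered 1.60 Mb, or 8.90% of the 17.95 Mb under WT peaks. The KO to WT ratio of the 2 counts was 0.927 (0.863 to 0.995), so wide peaks without a partner were not more numerous in KO under these limits. The ratio was above 1 under 2 other limits, 1.21 (0.631 to 2.35) among peaks with a q of 1e-05 or lower and 1.02 (0.965 to 1.08) with a width limit of 400 bp, and both intervals include 1. With one limit on total length for both lists, not reduced by d, it was 0.464 (0.425 to 0.506). On the autosomes alone the ratio was 0.951 (0.883 to 1.02), an interval that includes 1. The tag totals behind the lists were 34502392 in KO and 33474010 in WT, and d was 189 bp in KO and 292 bp in WT. Width above d, pileup and q-value all depend on d, and the part of d in these counts was not tested.

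The values used in the selection are given here as a description. KO-only wide peaks were 689 to 1865 bp long, with a median of 792 bp, and exceeded d by a median of 603 bp. Their pileups ran from 13.0 to 51.95 with a median of 18.03. Their fold enrichments, the authors' values, ran from 2.11 to 4.51 with a median of 2.997. Their −log10 q-values ran from 2.05 to 7.06 with a median of 2.78, where the authors' cutoff is 2, and 971 of them (64.9%) were below 3. The 3867 wide KO peaks shared with WT had a median fold of 2.996, a median pileup of 22.87 and a median −log10 q of 3.41. The median −log10 q was 2.83 for KO-only narrower peaks and 3.01 for all KO peaks. KO-only wide peaks were thus mostly weak calls, as were many other KO peaks. At the width limit, 3 peaks exceeded d by 500 bp and the next 3, outside, by 499 bp. The pileups nearest the limit were 51.95, 45.87 and 39.39 inside and 219.1 outside. At the overlap limit, the nearest WT peaks inside were 2, 4 and 9 bp away, and the smallest overlaps outside were 1, 1 and 3 bp.

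The share of wide peaks without a partner was lower among wider and more significant peaks in both libraries. Among peaks exceeding d by 500 to 599 bp, 39.0% of KO and 38.5% of WT peaks had no partner. Among those exceeding d by 1000 bp or more, 93 of 820 KO peaks (11.3%) and 132 of 904 WT peaks (14.6%) had none. By q-value, the share was 43.7% in KO and 50.3% in WT at a −log10 q of 2 to 3. It was 10.4% in KO and 16.4% in WT at 4 to 5, and 5.09% in KO and 2.87% in WT at 5 to 7. At 7 or more it was 1 of 172 KO peaks and 0 of 335 WT peaks. At a q of 1e-05 or lower, 23 of 604 wide KO peaks (3.81%, 2.43 to 5.66) and 19 of 996 wide WT peaks (1.91%, 1.15 to 2.96) had no partner.

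**Figure D1:**
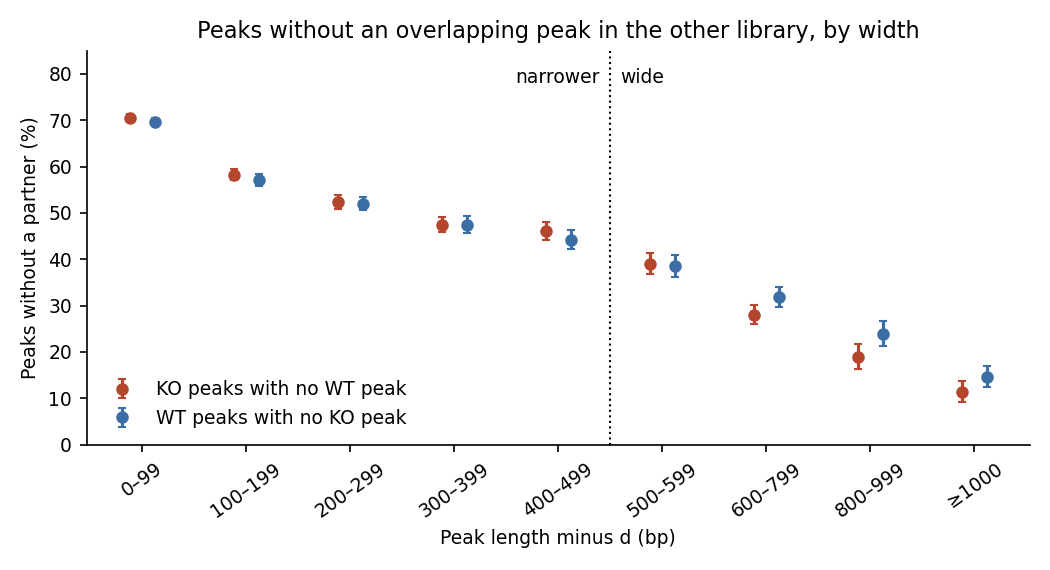
Share of peaks without an overlapping peak in the other library (vertical axis, percent) by peak length minus d (horizontal axis, bp) in KO and WT, with exact 95% intervals for counting error. The share is 70.5% in KO and 69.6% in WT in the narrowest class and 11.3% in KO and 14.6% in WT in the widest.

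The most significant KO-only wide peaks lay in different kinds of place. The lowest q-value belonged to chromosome 1 from 144560219 to 144560994, inside Rgs21, a regulator of G protein signalling gene, with a −log10 q of 7.06 and a fold of 4.496. A WT peak was 12.6 kb away, and the gene body held 5 KO and 5 WT peaks. The next, at chromosome 4 from 90726027 to 90726745, had a −log10 q of 6.62 and a fold of 4.51, lay 485 kb from the nearest coding gene, Elavl2, and was 93.7 kb from a WT peak. A peak at chromosome 7 from 72549362 to 72550256 had 6.57 and lay 242 kb from Mctp2. One at chromosome 12 from 58536653 to 58537352 had 6.30 and lay in the long non-coding RNA gene Gm30687. Inside coding genes followed Slc8a1, a sodium-calcium exchanger gene, with 6.24, and Sema3d, a semaphorin gene, with 6.19. The last 4 of the leading 10, with 5.59 to 5.97, were near Nectin3, Gm21149, Pcsk5 and Sis. The one near Sis, at chromosome 3 from 71824046 to 71824880, was 108 kb from a WT peak and more than 1 Mb from any coding gene.

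The widest KO-only peaks were not the most significant. The widest, 1865 bp at chromosome 3 from 133351574 to 133353438, lay inside Ppa2, a mitochondrial pyrophosphatase gene, with a −log10 q of 3.14, 92.4 kb from a WT peak. It was the only KO peak in that gene, which had no WT peak. A peak of 1862 bp at chromosome 15 from 14213730 to 14215591 lay over 1 Mb from the nearest coding gene, Cdh6. Of the 10 widest, 2 more were in coding genes, 1767 bp in Enpp2, which encodes the enzyme autotaxin, and 1661 bp in the glutamate receptor gene Grm5. All 10 had −log10 q-values between 2.60 and 3.14.

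Distances to the other library were similar for KO-only and WT-only wide peaks. The distance ran from 2 to 995169 bp for KO-only and from 3 to 812522 bp for WT-only wide peaks. The medians were 10207 bp for KO-only and 10003 bp for WT-only wide peaks. Within 1 kb of a peak of the other library were 86 KO-only wide peaks (5.75%) and 5.64% of WT-only wide peaks. Within 10 kb were 740 KO-only wide peaks, or 49.5% (46.9 to 52.1), and 49.97% of WT-only wide peaks. Other-library peaks within 10 kb on both sides were found for 189 KO-only (12.6%) and 204 WT-only (12.6%) wide peaks. The median distance to the nearest other KO peak was 11755 bp, a little more than the distance to a WT peak. Within 100 kb, a KO-only wide peak had a median of 6 WT and 7 KO peaks, and a shared wide KO peak had 10 and 10. The KO counts include the peak itself. The WT count of a shared peak includes its own partner, so part of the WT difference is set by the selection.

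**Figure D2:**
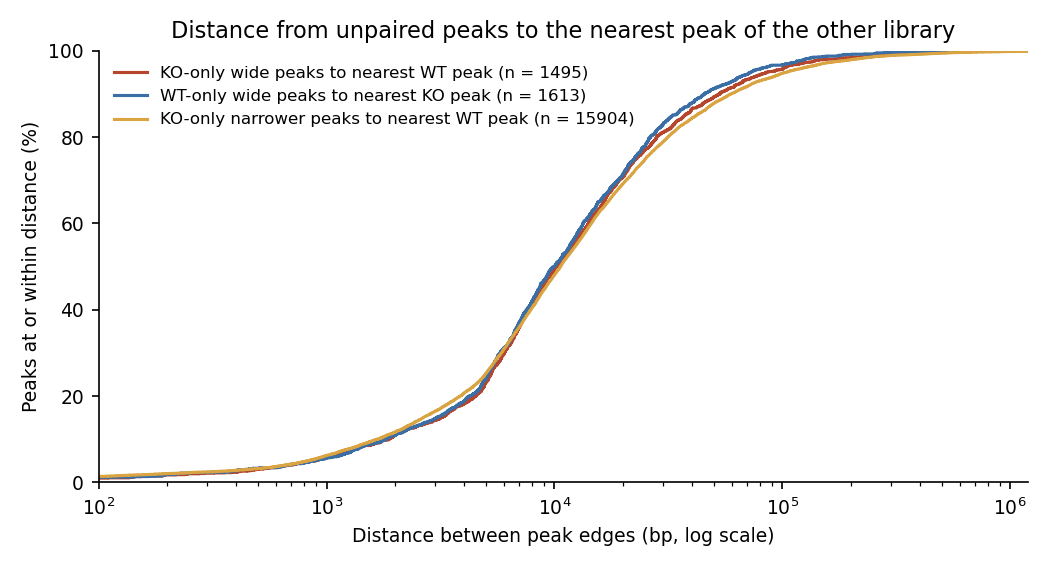
Cumulative share of peaks (vertical axis, percent) by distance from their edge to the nearest peak of the other library (horizontal axis, bp, log scale) for KO-only wide, KO-only narrower and WT-only wide peaks. The 3 curves lie close together, and the KO-only and WT-only wide curves have medians of 10207 and 10003 bp.

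Isolated peaks were few. More than 100 kb from any WT peak were 64 KO-only wide peaks (4.28%), and more than 100 kb from any KO peak were 53 WT-only wide peaks (3.29%). Of the 64, 18 had their midpoint in a coding gene body, and 28 had no other KO peak within 100 kb either. The farthest, at chromosome 1 from 152200176 to 152200905, was 995 kb from a WT peak and had a −log10 q of 2.84. The peak at chromosome 16 from 82482747 to 82483444 was 667 kb away, and peaks near Fgfr2, a fibroblast growth factor receptor gene, and Nphp4, a gene of the cilium, were 595 and 559 kb away. Those inside Stam2, an endosomal sorting gene, Nbas, a gene of Golgi to endoplasmic reticulum transport, and Cntn6, a neural adhesion gene of the contactin family, were 541, 482 and 448 kb away. The peak near Nphp4, at chromosome 4 from 152592715 to 152593767, had a −log10 q of 4.08 and 4 KO peaks, itself included, within 100 kb, where WT had 0.

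Most KO-only wide peaks lay outside genes, as did most peaks of the other sets. Midpoints in protein-coding gene bodies numbered 412, or 27.6% (25.3 to 29.9), against 27.6% of shared wide KO peaks and 29.6% of WT-only wide peaks, and coding gene bodies made up 40.0% of the span. Midpoints outside annotated genes numbered 936, or 62.6%, against 63.6% of shared wide KO peaks, 61.4% of WT-only wide peaks and 51.8% of the span. Other annotated genes, mostly long non-coding RNAs and pseudogenes, held 9.83%. Near coding gene starts, within 1 kb, lay 24 KO-only wide peaks (1.61%), 99 shared wide KO peaks (2.56%) and 22 WT-only wide peaks (1.36%). The median distance to the nearest coding gene was 65750 bp for KO-only, 77424 bp for shared and 62472 bp for WT-only wide peaks.

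**Figure D3:**
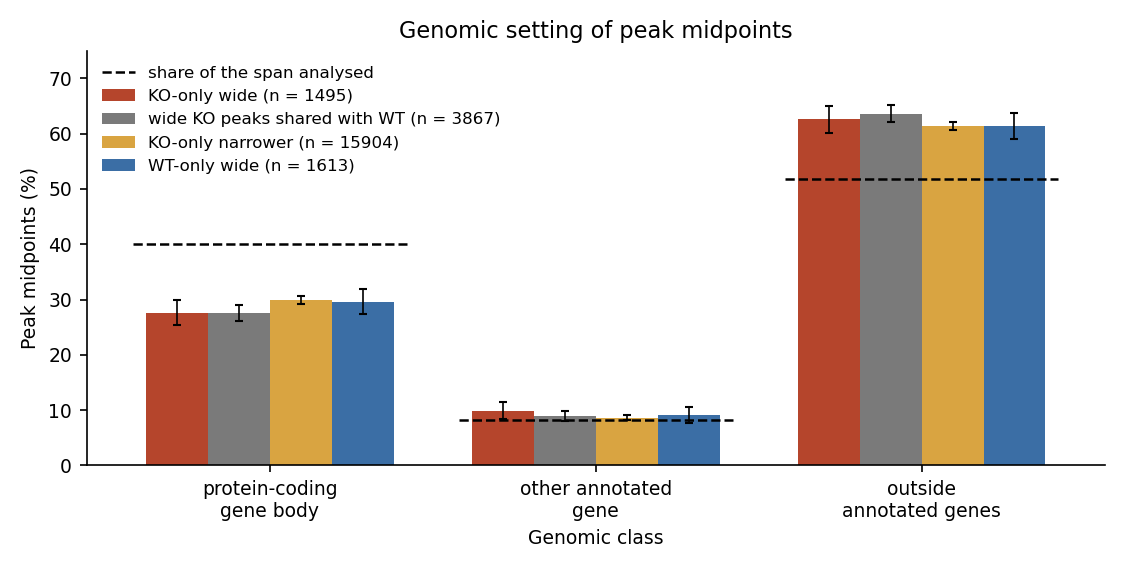
Share of peak midpoints (vertical axis, percent) in coding gene bodies, other annotated genes and sequence outside genes for 4 sets of peaks, with exact 95% intervals for counting error and a dashed line for the share of the span. In all 4 sets 27.6 to 29.97% of midpoints are in coding gene bodies, below the 40.0% of the span.

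Along the chromosomes, KO-only wide peaks were densest in gene-poor sequence, as were WT-only wide peaks and KO peaks of any width. Per 1 Mb bin there were 0.675 in bins with no coding gene, 0.847 in bins with 1 to 4, 0.445 with 5 to 14, 0.189 with 15 to 29 and 0.243 with 30 or more. WT-only wide peaks had 0.802, 0.919, 0.465, 0.163 and 0.252 in the same classes of bin, and KO peaks of any width had 14.7, 18.9, 9.02, 3.83 and 4.90. KO-only wide peaks made up 26.2% (23.3 to 29.2) of wide KO peaks in bins with no coding gene and 32.2% (22.6 to 43.1) in bins with 30 or more. Chromosome 3 had the highest density, 0.765 per Mb, and chromosome 19 the lowest, 0.326 per Mb. Of 2641 bins, 917 held a KO-only wide peak and 929 a WT-only wide peak, and 537 held both, which is 58.6% of the KO-only bins and 57.8% of the WT-only bins. Only 6 KO-only wide peaks lay in the 599 bins without any WT peak, and 6 WT-only wide peaks in the 583 bins without any KO peak.

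The X chromosome had the lowest KO to WT ratio of the 20 chromosomes. It held 82 KO-only and 127 WT-only wide peaks, a ratio of 0.646 (0.483 to 0.859). All peaks there numbered 2004 in KO and 2094 in WT, and wide peaks below the pileup limit numbered 301 and 359. Of the wide peaks on X, 27.2% in KO and 35.4% in WT had no partner. The intervals of chromosomes 13, with 71 KO-only and 102 WT-only wide peaks, and 9, with 67 and 94, also excluded 1. Chromosome 7 had the highest ratio, 67 KO-only to 50 WT-only wide peaks (1.34, 0.915 to 1.97). Over 20 chromosomes KO-only wide peaks were more numerous on 9, fewer on 9 and equal on 2, and X was the only chromosome whose interval excluded the overall ratio of 0.927. The sex of the mice was not given in the sources used here.

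**Figure D4:**
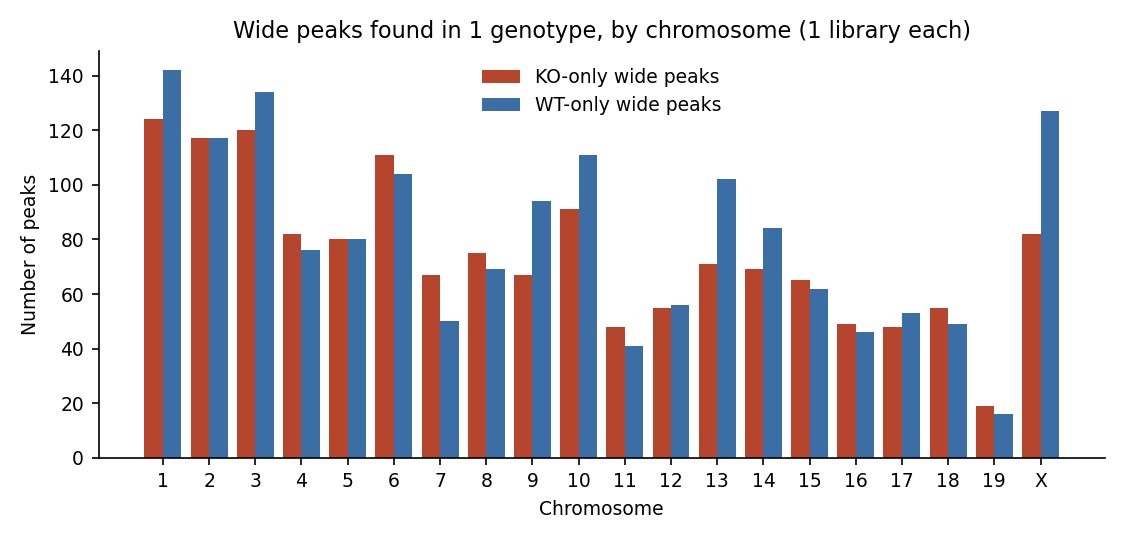
Number of KO-only and WT-only wide peaks (vertical axis) on each chromosome (horizontal axis). The X chromosome has 82 KO-only and 127 WT-only wide peaks, and chromosome 7 has 67 and 50.

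Most KO-only wide peaks had no other KO-only wide peak within 100 kb. Whether they were grouped more than randomly placed peaks would be was not tested. Another KO-only wide peak lay within 100 kb of 367 of them, or 24.5% (22.4 to 26.8), and another WT-only wide peak lay within 100 kb of 500 WT-only wide peaks, or 31.0% (28.7 to 33.3). Within 250 kb the shares were 50.1% of KO-only and 52.1% of WT-only wide peaks. Linked at 100 kb, they formed 20 KO-only and 41 WT-only groups of 3 or more, and the largest group had 5 peaks in each library. The most in 1 bin was 6 KO-only wide peaks, at chromosome 1 from 96000001 to 97000000, chromosome 10 from 15000001 to 16000000, chromosome 11 from 18000001 to 19000000 and X from 114000001 to 115000000. Those bins also held 2, 3, 3 and 2 WT-only wide peaks.

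The group of 5 spanned chromosome 11 from 30322037 to 30535429, across 4930505A04Rik and part of Acyp2, an acylphosphatase gene. That stretch held 14 KO and 11 WT peaks of any width, 0 of them WT-only wide. In Frmd4a, a scaffold gene of epithelial polarity, 4 KO-only wide peaks lay between 4115278 and 4195352 on chromosome 2, where there were 6 KO peaks and 1 WT peak. Its −log10 q-values reached only 2.89. A group of 4 at chromosome 8 from 128891184 to 129052068 included Ccdc7a and reached 5.33, with 16 KO and 12 WT peaks. A group of 4 at chromosome 2 from 122865993 to 123062478, 56.4 kb from the sulfide oxidation gene Sqor, reached 4.61, with 13 KO and 11 WT peaks. The shortest group of 3, at chromosome 18 from 79847409 to 79873176, held 4 KO peaks and 1 WT peak. The next shortest, noted after its values were seen, at chromosome 6 from 130943762 to 130969602, held 3 KO peaks and 0 WT peaks.

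KO-only wide peaks touched 349 of 21517 protein-coding genes, or 1.62%, and WT-only wide peaks also touched 349, or 1.62%. The 2 sets of genes shared 121 members, 34.7% of each, and 228 genes were touched on each side alone. Long genes were touched most. The touched genes had a median length of 300.3 kb with KO-only and 294 kb with WT-only wide peaks. The median was 17.4 kb for all coding genes and 92.1 kb for those with a WT peak. Genes of 300 kb or more were 175 of the 349 with a KO-only wide peak (50.1%) and 173 of the 349 with a WT-only wide peak (49.6%), but 2.58% of all coding genes. The share touched by a KO-only wide peak was 0.164% of genes under 20 kb and 55.9% (33 of 59) of genes of 1000 kb or more. A longer body has more bases to be touched. Per Mb of gene body the same 2 classes had 0.214 and 0.718 KO-only wide peaks.

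Genes with several KO-only wide peaks were mainly such long genes, and most held peaks of both libraries. There were 15 genes with 3 or more KO-only wide peaks and 31 with 3 or more WT-only wide peaks. Dgkb, a diacylglycerol kinase gene on chromosome 12 from 37880169 to 38634239, had 5 KO-only and 0 WT-only wide peaks, and 59 KO and 43 WT peaks of any width. Frmd4a, on chromosome 2 from 4017650 to 4614043, had 5 KO-only and 0 WT-only, and 14 KO and 8 WT peaks. Pde1c, a calmodulin-dependent phosphodiesterase gene on chromosome 6 from 56069798 to 56652510, had 4 and 0, with 19 peaks in each library. In these 3 genes the wide peaks without a partner were all on the KO side.

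Other long genes had such peaks on both sides. Fhit, a nucleotide hydrolase gene at a fragile site, had 5 KO-only and 1 WT-only wide peak. Pard3b, a polarity gene, had 4 and 1, and Magi1, a gene of a junctional scaffold, had 3 and 1. Cntnap2, a neurexin relative, and Grm8, a glutamate receptor gene, each had 3 KO-only and 5 WT-only wide peaks. Ccser1, Etl4, Malrd1 and Mgat4c had 3 KO-only and 1 to 2 WT-only wide peaks. Gm37013 and Gm38666 had 3 and 0, but they overlap each other and the protocadherin cluster and share the same peaks. Genes with 3 or more peaks on one side and 0 on the other numbered 5 for KO-only and 11 for WT-only wide peaks. On the WT side the leading genes were Macrod2, with 2 KO-only and 6 WT-only, and Lrp1b, a lipoprotein receptor relative, with 0 and 5.

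**Figure D5:**
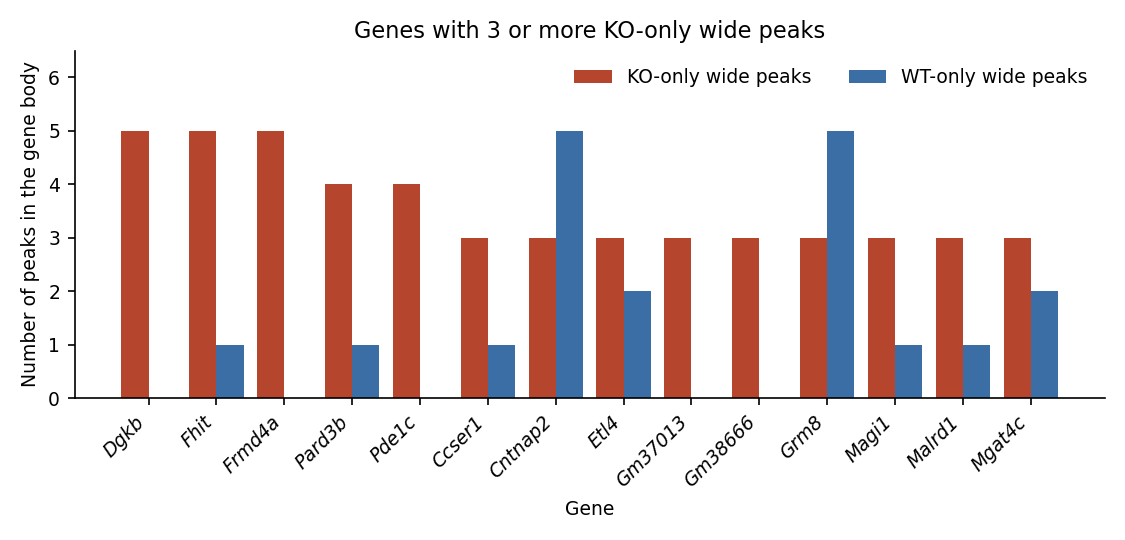
Number of KO-only and WT-only wide peaks (vertical axis) in the bodies of coding genes with 3 or more KO-only wide peaks (horizontal axis), of which not all are shown. The genes were picked by the KO-only count, so the higher KO-only bars in most of them are no result; Dgkb and Frmd4a have 5 and 0, and Cntnap2 and Grm8 have 3 and 5.

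Exactly 2 KO-only wide peaks were found in 59 genes. Among them were Ikzf2, which encodes the Ikaros family factor Helios, with 2 KO-only and 0 WT-only wide peaks and 8 KO and 6 WT peaks in all, and Grin2a, a glutamate receptor subunit gene, with 2 and 0 and 8 KO and 2 WT peaks. Sox5, a transcription factor gene, had 2 and 0 with 11 KO and 8 WT peaks, and Nox3, an NADPH oxidase gene, had 2 and 0 with 4 KO and 2 WT peaks. Macrod2, Mecom and Csmd3 had 2 KO-only wide peaks and more WT-only ones, 6, 4 and 4. At least 2 KO-only wide peaks and 0 WT-only ones were found in 33 genes, and the reverse in 45.

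Genes without any WT peak numbered 39 among those with a KO-only wide peak, and 37 genes with a WT-only wide peak had no KO peak. KO-only wide peaks were chosen to overlap no WT peak, so in short genes the rule partly sets this outcome. Among the 39, the peak covered 72.8% of Olfr638 and 50.3% of G6pd2. The share of all coding genes without a WT peak is not given here. Most of the 39 had that 1 KO peak alone, such as, chosen after their values were seen, Mitf, a transcription factor gene of pigment and mast cells, Acyp2, Amer1, Cntn6, Stam2, Nbas, Lrat and Prl, the prolactin gene. Fn1, the fibronectin gene, had 4 KO and 0 WT peaks, with 1 of the 4 wide, and Dpys, a pyrimidine catabolism gene, and Lgsn had 3 KO and 0 WT peaks. The peak in Scp2d1 had the highest −log10 q of the 39 genes, 3.99, and 14.2 kb separated it from a WT peak.

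In genes of at least 20 kb, KO-only wide peaks covered at most a few percent of the body. After the predicted gene Gm3373, with 3.92%, came Kl, the klotho gene, on chromosome 5 from 150952607 to 150993817, with 3.61%. Lhx8, a LIM homeobox gene, had 3.19%, and Slc1a6, a glutamate transporter gene, and Nox3 each had 3.05%. Ces1f, a carboxylesterase gene, had 2.996%, Amer1, a Wnt pathway regulator gene, and Gm4846 had 2.98% each, Cldn18 had 2.76% and Ppa2 had 2.74%. These 10 genes, picked by KO-only coverage, had 0 WT-only wide peaks, as had all but 1.62% of coding genes.

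The lists of B cell genes held no KO-only wide peaks. Over all coding genes 1.62% had one, so a count of 0 KO-only wide peaks in lists this short is close to that background. The 20 B cell identity genes, the 16 plasma cell genes, 15 of 16 germinal centre genes that matched the annotation, the 21 genes of STAT3 and cytokine signalling and the 23 H3K9 methylation enzymes and readers, Jmjd1c included, had 0 H3K9me2 peaks of any width in their bodies in KO and 0 in WT. The lists therefore do not check the knockout. The 1.62% is a background for KO-only wide peaks, not for the counts of 0 peaks of any width. The share of all coding genes with a peak of any width is not given here. All coding genes, with 1046 Mb of gene body, had 9616 KO and 9456 WT peaks of any width. In these sums a peak or base in overlapping genes counts once for each gene. The lists just named have 1.43, 0.515, 0.504, 0.696 and 1.43 Mb of gene body. Among markers of other cell types, 17 T cell and innate lymphoid genes, with 0.587 Mb of gene body, had 0 KO-only and 0 WT-only wide peaks. They had 1 shared wide peak and 23 peaks of any width in each library. How these peaks were spread over the genes is not given here. The 17 myeloid genes, with 0.316 Mb, had 0 and 0 with 1 peak in each library. A count of 0 says that no region passed the authors' threshold, not that the mark was absent.

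A list of 40 mostly long genes was examined, most of them with synaptic or neural adhesion roles. Its KO-only and WT-only wide peaks were somewhat denser per Mb than those of long coding genes in general. Of the 40 genes, 25 had a KO-only and 20 a WT-only wide peak, with 43 KO-only, 50 WT-only and 130 shared wide peaks in all. Per Mb of gene body these were 0.932 KO-only and 1.08 WT-only wide peaks, against 0.428 and 0.464 over all coding genes. The values over all coding genes count a peak in overlapping genes once for each gene, giving 448 KO-only wide peaks where 418 were distinct. Coding genes of 300 to 1000 kb had 0.849 KO-only and 0.920 WT-only wide peaks per Mb, and those of 1000 kb or more had 0.718 and 0.806. Both length classes include genes of the list. Dgkb, a lipid kinase gene, and Fhit, a nucleotide hydrolase gene, led with 5 KO-only wide peaks each, although neither is a synaptic or adhesion gene by these roles. Macrod2, which is not one either, had 2 KO-only and 6 WT-only. Cntnap2 and Grm8 had 3 KO-only wide peaks each, and Lrp1b and Lrrtm4 had 0 KO-only with 5 and 3 WT-only. Cntnap5b, a neurexin relative, had 2 KO-only and 1 WT-only, while Magi2, a synaptic scaffold gene, had 1 and 3. The list was assembled with earlier results of these data known, so its richness in peaks is no independent evidence.

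Gene families had 0 to 8 KO-only wide peaks each, at densities on both sides of that of all coding genes, 0.428 KO-only and 0.464 WT-only wide peaks per Mb of gene body. The 1109 olfactory receptor genes, mostly short, had 8 KO-only and 3 WT-only wide peaks, in 0.721% of the genes on the KO side, or 3.76 and 1.41 per Mb. Of all coding genes under 20 kb, 0.164% had a KO-only wide peak and 0.156% a WT-only one, at 0.214 and 0.202 per Mb. Most receptor bodies touched were not much longer than the peaks and counted by 1 bp of overlap, so their values per Mb are inflated. The 350 vomeronasal receptor genes had 3 KO-only and 2 WT-only wide peaks (0.857% of genes on the KO side, 0.832 and 0.555 per Mb), and the 397 zinc finger genes had 5 and 6 (1.26%, 0.373 and 0.447 per Mb). The 99 cytochrome P450 genes had 2 and 4 (2.02%, 0.724 and 1.45 per Mb), and the 63 serpin genes had 0 and 1 (0 and 0.925 per Mb). The 23 cadherin genes, with 6.28 Mb of gene body, had 4 and 1 (17.4%, 0.637 and 0.159 per Mb). Coding genes of 100 to 300 kb had 0.364 KO-only and 0.443 WT-only wide peaks per Mb, and those of 300 to 1000 kb had 0.849 and 0.920. A family effect apart from gene length was not tested. Among protocadherins, the overlapping Pcdha genes share 2 distinct KO-only wide peaks and had 0 WT-only ones. Outside that cluster Pcdh7 had 1 KO-only and 3 WT-only wide peaks, Pcdh9 had 0 and 2, and Pcdh15 had 0 and 1. Reads of near-identical copies can be placed on the wrong one, so these family counts are uncertain. Outside coding genes, 138 of 12607 long non-coding RNA genes had a KO-only wide peak (1.09%) and 128 a WT-only one (1.02%). Of 9761 pseudogenes, 44 had a KO-only (0.451%) and 38 a WT-only wide peak (0.389%). Of 1228 microRNA genes, 0 had a KO-only and 0 a WT-only wide peak. These genes are very short, so a count of 0 says little.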

How the data were processed

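The data were H3K9me2 CUT&Tag peak lists of activated B cells from C57BL/6 mice, 1 KO and 1 WT library, assigned by the labelled genotype. Tools listed in the submitters' processing notes, with no roles, are SAMtools 1.11, Bowtie2 2.4.2, Trim Galore 0.6.6, deepTools, HOMER, Picard and MACS2, and the build is mm10. The authors ran the broad mode of MACS2 2.2.7.1 on each library, per the file headers, without a control or paired-end mode. Both cutoffs, q and broad, were 0.01, duplicates were all kept, and background was taken over 10000 bp. Tag totals were 34502392 in KO and 33474010 in WT, and d, to which each tag is extended, was 189 bp in KO and 292 bp in WT. The deposited pileup is a coverage signal not scaled between libraries, the deposited p-values and q-values are −log10 values of the authors' caller, and the deposited fold enrichment is a ratio over local background. Fold, q-value and pileup were compared within a list only, apart from the stated q classes.

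Peaks were selected, and distances, overlaps (1 bp), 1 Mb bins and linked groups (100 kb) computed, with Python 3.11.15, numpy 2.4.6, pandas 2.3.3 and SciPy 1.17.1, and checked on simulated data. Genes came from RefSeq on GRCm38.p6, the assembly behind mm10, 49205 genes after 345 on scaffolds were left out; exons and introns were not used here, and neither was the base composition of peaks, for which no genome was at hand. Intervals are Clopper-Pearson, and ratios carry binomial-based intervals. Kept duplicates are not independent molecules, so intervals cover counting error only.

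The peaks, gene lists and named genes were chosen with earlier results of these data known. Named were the 10 widest, 10 lowest in q and 10 farthest from WT, the 5 groups with most peaks (ties to the shortest), coding genes with 2 or more peaks, the 10 most covered genes of at least 20 kb, list genes with a peak, and the 3 peaks on each side of every limit, with others marked as chosen later. Of long lists only examples are named, and a few genes that meet these rules are not reported here. Alternatives changed the overlap, d, q, width, pileup, chromosomes, merging, distances and gene window.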

Additional observations from a re-analysis of the deposited data

Results flagged for a closer look

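Outside chromosomes 1 to 19 and X, which the comparisons do not use, 5 wide KO peaks on the Y chromosome, the mitochondrial genome and unplaced or patch scaffolds had no WT peak, and 4 wide WT peaks there had no KO peak. They are given because they are signal in data that no comparison used. All peaks there numbered 199 in KO and 188 in WT, of which 39 in KO and 40 in WT were wide.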

How the results depend on the processing

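Of 70 alternative values, 44 moved by less than their counting interval or, for counts, by less than 1.5 times, 24 moved by more, and 2 changed direction. Those 2 were the KO to WT ratio of unpartnered wide peaks, 0.927 as reported, which was 1.21 at a q of 1e-05 or lower and 1.02 with a width limit of 400 bp; it was 0.726 at 750 bp and 0.464 with one limit on total length for both lists. The direction of this ratio thus changed with limits on q and width, which depend on d. The count of 1495 became 23 at the stricter q, 2653 at 400 bp, 321 at 750 bp and 748 with one total length. The share of wide KO peaks without a WT peak was 26.3% and 21.4% when a WT peak within 1 or 5 kb counted as shared, 3.81% at the stricter q, 33.7% at 400 bp and 16.3% at 750 bp. Within 10 kb of a WT peak were 43.5% at the stricter q, and 23.1% were within 5 kb and 89.3% within 50 kb. Coding gene bodies held 21.7% at the stricter q. Linked to another KO-only wide peak were 19.5% when a WT peak within 5 kb counted as shared, 0% at the stricter q, 39.8% at 400 bp and 8.72% at 750 bp, and 14.5% and 50.1% at linking distances of 50 and 250 kb. Genes touched numbered 5, 537 and 104 at the stricter q, 400 bp and 750 bp. Stricter or looser limits keep fewer or more peaks by construction; the cause of the other shifts was not tested. No paired analysis was possible because each genotype had 1 library. Most KO-only wide peaks were near the authors' q cutoff, and a missing WT call does not show that the mark was absent there.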

Other observations

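On the chromosomes analysed, 29 wide KO peaks and 41 wide WT peaks had a pileup of 100 or more and so lay outside the selection. Of these, 1 KO peak and 0 WT peaks had no partner. The KO peak lay at chromosome 9 from 3015238 to 3016126, with a pileup of 219.1 and a −log10 q of 14.96.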
